A study of Mus musculus with 6 samples.

Results

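The cells described here were cycling Vpreb3 B lineage cells of the inflamed mouse knee, given the working name cycling pre-B cells. They were selected on their own UMI counts (unique molecular identifiers, each standing for 1 captured RNA molecule). A cell was taken if it had at least 2 UMIs of Cd79a and Cd79b together, at least 1 of Vpreb3, at least 2 of Mki67 and Top2a together, and 0 of Csf1r. This gate held 937 of 32953 cells, or 2.84% (95% Wilson interval 2.67 to 3.03%). All intervals given here cover counting error only.

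The cells came from a single-cell RNA sequencing experiment on CD45-positive synovial cells of male C57BL/6 mice, bought at 8 weeks of age, with antigen-induced arthritis. For this model the study digested isolated joints with enzymes before sorting. Whether the gate cells lay in the synovium or came from bone marrow was not tested. In this model an immunization with methylated bovine serum albumin (mBSA, 10 μg, in complete Freund's adjuvant) is followed on day 21 by 100 μg mBSA injected into the knee. All groups shared that regimen, and no genetic change is named in the labels. There were 6 samples, taken 3 days after the challenge, of which 2 were from mice given PBS and 4 from mice given 300 μg of the immune peptide PEPITEM intraperitoneally. The deposited barcodes carry a library number from 1 to 6 that no source used here links to a sample, so no cell was assigned to PBS or PEPITEM and the treatments were not compared. The 6 libraries are shown as libraries of unknown treatment. They are not replicates of a group, so values are given for the lowest, median and highest of them, and no test between groups was run.

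B cells are made in stages in the bone marrow. A pro-B cell that has joined a heavy-chain gene displays it with a stand-in light chain, built from the products of Igll1 and the Vpreb genes, as the pre-B cell receptor. Signals from this receptor and from the interleukin 7 receptor drive a short burst of division of large pre-B cells, after which small resting pre-B cells reopen the recombination machinery, join a true light chain and become immature B cells. Vpreb3 is expressed through these stages, and Cd79a and Cd79b encode the signaling chains of the pre-B cell receptor and of the later B cell receptor.

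Vpreb3 (chr10:75943057-75949657, GRCm38, plus strand) and Top2a (chr11:98992943-99024189, minus strand), which encodes DNA topoisomerase II alpha, joined B lineage identity and division in the gate. Igll1, which encodes the lambda 5 part of the stand-in light chain, and Ccnb2, which encodes the mitotic cyclin B2, are described below as genes the gate did not use. The 250 bases upstream of the annotated starts of these 4 genes are shown to compare a B lineage control region with that of a division gene. They are RefSeq sequences of build GRCm38.p6, written 5′ to 3′ along the strand of the gene, and capitals mark matches to 6 motifs searched on both strands. The RefSeq start of Vpreb3 lies inside the longer GENCODE span of the gene given above.

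Vpreb3, chr10:75948050-75948299, plus strand: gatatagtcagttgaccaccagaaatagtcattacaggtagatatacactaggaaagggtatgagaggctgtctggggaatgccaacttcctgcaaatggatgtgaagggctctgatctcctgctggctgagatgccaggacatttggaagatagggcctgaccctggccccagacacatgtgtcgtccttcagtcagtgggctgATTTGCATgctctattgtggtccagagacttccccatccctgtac
Igll1, chr16:16863986-16864235, minus strand: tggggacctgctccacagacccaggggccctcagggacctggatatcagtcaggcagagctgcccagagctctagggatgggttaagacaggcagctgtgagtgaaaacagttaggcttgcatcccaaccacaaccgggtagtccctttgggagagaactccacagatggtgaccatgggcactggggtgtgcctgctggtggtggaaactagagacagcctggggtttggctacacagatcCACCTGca
Top2a, chr11:99024190-99024439, minus strand: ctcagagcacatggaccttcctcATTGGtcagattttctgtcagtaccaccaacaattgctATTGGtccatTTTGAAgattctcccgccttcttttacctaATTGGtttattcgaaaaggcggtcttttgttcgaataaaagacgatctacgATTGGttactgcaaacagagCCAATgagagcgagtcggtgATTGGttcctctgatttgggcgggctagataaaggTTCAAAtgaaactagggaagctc
Ccnb2, chr9:70421555-70421804, minus strand: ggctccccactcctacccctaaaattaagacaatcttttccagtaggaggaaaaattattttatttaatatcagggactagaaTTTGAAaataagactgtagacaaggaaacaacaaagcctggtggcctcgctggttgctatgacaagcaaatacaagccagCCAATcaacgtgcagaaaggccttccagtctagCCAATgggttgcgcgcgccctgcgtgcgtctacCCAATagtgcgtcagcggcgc

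The motifs were the octamer ATTTGCAT read by Oct factors, the E box CAGGTG, the EBF1 palindrome TCCCNNGGGA, the CCAAT box CCAAT, the cell cycle homology region TTTGAA and an E2F site, GGCGGGAA. Apart from letters that 2 matches may share, no motif contains another. The Vpreb3 promoter held an octamer 45 bases before the start, and an octamer was present in 1.6% of 32851 mouse promoters. The Igll1 promoter held an E box 8 bases before the start, a motif present in 17.2% of promoters. The Top2a promoter held 6 CCAAT boxes and 2 copies of the cell cycle homology letters, and that of Ccnb2 held 3 and 1. Across promoters of the mitosis genes listed below, 18 of 20 held a CCAAT box, against 33.8% of all promoters and 13 of 22 promoters of the S phase genes. The cell cycle homology letters were in 7 of 20 mitosis promoters and in 16% of all promoters. Sequences were found for 19 of the 21 mitosis genes and 19 of the 23 S phase genes. A match gives the letters in the window and no more.

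The number of gate cells was uneven over the libraries. They were 62, 327, 50, 59, 259 and 180 cells in libraries 1 to 6, from totals of 2919 to 9345 cells per library. As a share of all cells they made up 1.48% in the lowest, 2.12% in the median and 5.63% in the highest library, which was library 2. Without library 2 the pooled share was 2.25%. As a share of the 6466 cells with at least 2 UMIs of Cd79a and Cd79b, the gate held 14.5% (13.7 to 15.4%), and the libraries ran from 8.90 to 19.3%. On this scale library 5 was the highest and library 2 no longer stood apart. Total depth per library was 47273569 to 123367661 UMIs.

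**Figure D1:**
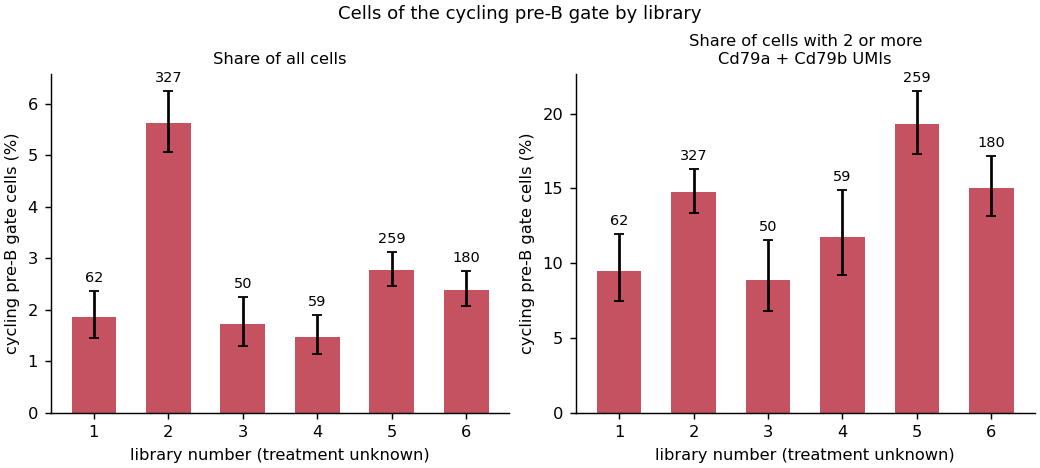
Percent of all cells (left) and of cells with at least 2 Cd79a and Cd79b UMIs (right) that passed the cycling pre-B gate, by library number. Bars are shares, whiskers are 95% Wilson intervals and the numbers are cells; library 2 was highest on the left at 5.63% and library 5 on the right at 19.3%.

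The gate was far from its limits for most cells. The median cell had 25 UMIs of Vpreb3, 24 of Cd79a and Cd79b and 31 of Mki67 and Top2a, and 743 cells had at least 10 of the last pair. Just inside the limit of division, 56 cells had 2 UMIs of Mki67 and Top2a, while 205 cells with 1 UMI were left out. The cells with 2 UMIs had 52.4 CPM of Ccnb2 (UMIs scaled to a total of 1000000) and those with 1 UMI had 18.5 CPM. A further 112 dividing cells had no Vpreb3, with a median of 33894 UMIs per cell, and 52 cells had Csf1r.

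The median gate cell had 13926 UMIs and 3945 detected genes (library medians of UMIs 11355 to 16829), and 2.78% of its UMIs were mitochondrial. Ptprc, which encodes CD45, was detected in 89.4% of gate cells. Of the markers fixed for the name, Myl4 was the only one the gate did not use. It encodes an atrial and embryonic myosin light chain and lies at chr11:104550663-104595753. It was detected in 80.1% of gate cells (77.5 to 82.6%), 45.1% of their non-cycling counterparts defined below, 2.34% of T cells and 4.12% of cycling Csf1r cells. With each cell thinned to 5000 UMIs these shares were 71.4, 44.6, 1.19 and 0.903%. The B lineage factors Ebf1 and Pax5 were detected in 99.7% and 98.9% of gate cells, and Pax5 in 0.18% of T cells. The name pre-B was not borne out for every cell. Ms4a1, which encodes the mature B cell surface protein CD20, was detected in 16.9% of gate cells (T cells 0.45%). Of these 158 cells, the 112 without Igll1 are described separately. No limit of the gate left out pro-B cells either. Dntt (terminal transferase) was detected in 45.4% of gate cells with Igll1 and 3.39% of those with neither Igll1 nor Ms4a1. For Kit (the stem cell factor receptor) the shares were 21.1% and 3.62%. Median depths were 18040 and 11931 UMIs. Whether the cells with Igll1 were pro-B or pre-B cells was not settled.

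Some gate cells carried RNA of other lineages. At least 2 UMIs of the T cell, neutrophil, macrophage or erythroid marker lists were counted in 90 cells (9.61%), whose median depth was 23549 UMIs, and in 609 (16%) of the 3806 non-cycling cells described below. The summed neutrophil list ran from 16.7 CPM in library 3 to 25468 CPM in library 5, with a median of 13625 CPM. S100a9, which encodes a neutrophil calgranulin, was its most abundant gene at 5768 CPM. Of the S100a8 and S100a9 UMIs, 100%, to 3 digits, lay in those 90 cells. That share was largely fixed by how the cells were picked, since any other cell could hold at most 1 UMI of the neutrophil list. None of its 9 genes was at 0. The macrophage list ran from 16.5 to 678 CPM, led by Lyz2 at 334 CPM, and of its 8 genes Csf1r was at 0 by the gate. The T cell list ran from 3.92 to 77.9 CPM, led by Lat at 6.27 CPM, and the erythroid list from 0 to 44.6 CPM, led by Hbb-bs at 3.86 CPM. Jchain, Igha and Igkc are genes that antibody-secreting cells express strongly. Separately, 4 cells picked for at least 10 Jchain UMIs held 99.9% of them, 100% of Igha UMIs and 64.4% of Igkc UMIs. Among the pooled levels given within the gate, leaving out these cells moved those of Igkc, Iglc1 and Erg by over 1.5 times, and both values are given.

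The first comparison asked how the dividing cells differed from cells of the same gate with no sign of division. The 3806 non-cycling Vpreb3 B lineage cells met the same limits but had 0 UMIs of Mki67 and Top2a, and their median depth was 5396 UMIs. UMIs were summed per library and set and scaled to CPM. A gene counted as different if CPM + 1 differed at least 2-fold in the same direction in each of the 6 libraries, and genes below 10 CPM in both sets were left out. Of 8771 genes, 641 were higher (7.31%) and 315 were lower (3.59%) in the dividing cells, and the median log2 ratio of all of them was -0.078. Mki67 and Top2a are 2 of the 641, and since the gate selected division, cell cycle genes are described here without being support for it.

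Genes of DNA synthesis and of mitosis filled the top of the list. Of 23 S phase genes, 22 were higher and none was lower, with a median ratio of 3.52 on the log2 scale. Rrm2, a subunit of the reductase that makes deoxynucleotides, stood at 280, 325 and 427 CPM in the lowest, median and highest library, against 0.757, 2.74 and 6.59 CPM in non-cycling cells. Dut, which clears dUTP, stood at 452, 532 and 578 CPM against 18.1, 20.8 and 38.5 CPM. Neither gene overlapped between the sets in any library. All 21 mitosis genes were higher, with a median log2 ratio of 5.52. Ube2c, the ubiquitin-conjugating enzyme of the anaphase-promoting complex, stood at 365, 444 and 632 CPM against 1.51, 2.98 and 5.93 CPM. The 5 genes with the largest ratios outside the gate were 2810417H13Rik, which encodes a PCNA-binding protein, Ccna2 (cyclin A2), Neil3 (a DNA glycosylase), Birc5 (survivin) and Pbk (a mitotic kinase), with log2 ratios of 6.78 to 7.88. Ratios of genes this near 0 CPM in the non-cycling cells depend on the pseudocount, and with 5 CPM in place of 1 CPM they were 4.76 to 6.95 for the same genes, 5.41 for Rrm2 and 5.75 for Ube2c, all still higher. Cdt1, a licensing factor of replication origins that is destroyed in S phase, was the S phase gene that did not pass, at 42.9 against 20.9 CPM.

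The regulators that start and stop the cycle behaved less uniformly. Of 17 cyclins, kinases and inhibitors, 16 passed the filter, 9 were higher and 1 was lower. The D cyclins link growth signals to the cycle. Ccnd3, the D cyclin known to be needed for pre-B cell expansion, stood at 502, 566 and 649 CPM in the dividing cells and 392, 560 and 703 CPM in the non-cycling cells, so the sets overlapped. Ccnd2 was at 77.7 against 136 CPM, and neither passed. Ccnd1 was below the filter at 1.63 CPM. Their partner kinase gene Cdk4 was 4.15-fold higher (159 to 180 against 36.6 to 50.5 CPM), while Cdk6 was at 302 against 159 CPM and did not pass. Inhibitors were among the higher genes. Cdkn2c, which encodes p18, stood at 67.3, 79.4 and 146 CPM against 7.95, 12.3 and 15.3 CPM. Cdkn1a, which encodes p21, stood at 45.9, 72.4 and 82.2 CPM against 16.4, 21.8 and 33.4 CPM. Cdkn1b, which encodes p27, was at 96.6 against 169 CPM and did not pass. The antiproliferative gene Btg1 was the one that was lower, at 385, 569 and 687 CPM against 1319, 1940 and 2635 CPM.

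**Figure D2:**
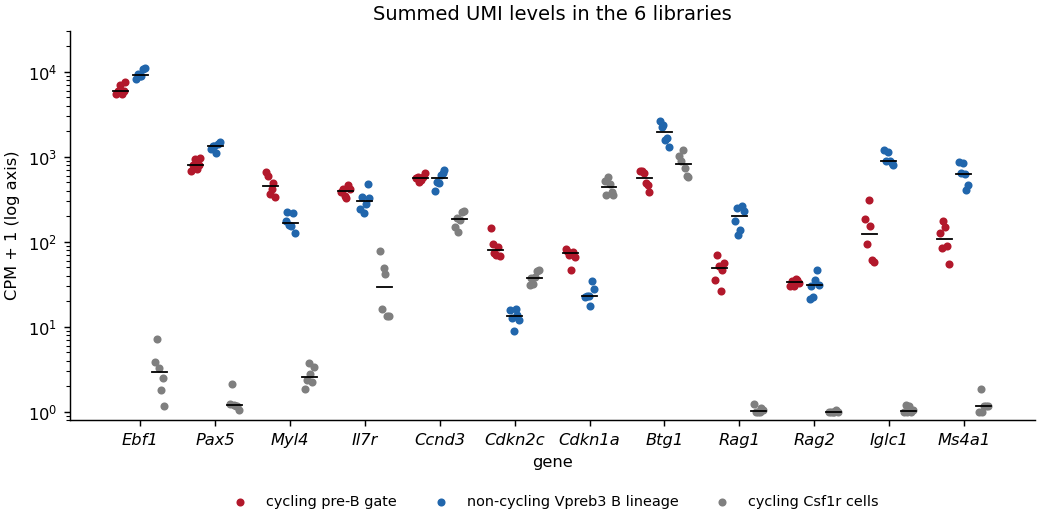
Levels (CPM + 1, log axis) of 12 genes in cycling pre-B gate cells, non-cycling Vpreb3 B lineage cells and cycling Csf1r cells. Each point is a library and black lines are medians; Rag1 was lower in the gate cells than in the non-cycling cells (medians 48.5 and 202 CPM) while Rag2 overlapped (32.6 and 29.7 CPM).

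Of the genes that join antibody gene segments, Rag1 and Rag2 did not move together over all cells of both sets. Both encode subunits of the recombinase, and they are neighbors in the genome (chr2:101638282-101649501 and chr2:101624718-101632529). Rag1 stood at 25.1, 48.5 and 69.2 CPM in the dividing cells and at 119, 202 and 259 CPM in the non-cycling cells, 4.00-fold lower, and the sets did not overlap. Rag2 stood at 28.9, 32.6 and 35.5 CPM against 20.1, 29.7 and 45.3 CPM. Dclre1c, which encodes the Artemis nuclease that opens the hairpins left by the recombinase, was 2.18-fold lower (60.6 to 70.1 against 131 to 170 CPM). Dntt, the terminal transferase that adds bases at heavy-chain joins, and Lig4, the ligase of end joining, did not pass. Of the 5 genes of this list, 2 were lower and none was higher.

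Of 9 genes of the pre-B receptor and light chains, 3 were lower and none was higher. The 3 were the lambda constant genes. Iglc1 stood at 56.6, 124 and 308 CPM against 796, 890 and 1203 CPM, and Iglc2 and Iglc3 had log2 ratios of -3.26 and -3.17. The kappa constant gene Igkc stood at 712, 2276 and 14837 CPM against 3615, 5333 and 13309 CPM, and without cells with at least 10 Jchain UMIs it was lower in every library, with a log2 ratio of -1.88. Igll1, at 264 against 197 CPM, and Vpreb1, at 405 against 354 CPM, did not pass.

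Among 15 B lineage transcription factors, 3 were lower and none higher, with a median log2 ratio of -0.62. The 3 were Ikzf3 (Aiolos, 3.12-fold lower), Foxo1 (2.68-fold), which activates the recombinase genes, and Spib (2.80-fold). Ebf1, at 6327 against 9690 CPM, and Pax5, at 827 against 1341 CPM, were below the non-cycling level in all 6 libraries and did not reach 2-fold. Lef1, Myb and Tcf3 had log2 ratios of -0.0070, 0.13 and 0.11 and did not pass. In the list of interleukin 7 and pre-B receptor signaling, 12 of 14 genes passed the filter and 1 was lower, Lyn, a kinase that both starts and restrains receptor signals (461 to 511 against 1344 to 1785 CPM). Il7r, the interleukin 7 receptor chain, overlapped at 328 to 459 against 219 to 476 CPM.

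Of 18 surface genes, 1 was higher and 5 were lower. Spn, which encodes CD43, a protein of pro-B and large pre-B cells, stood at 25.5, 38.3 and 51.2 CPM against 4.92, 11.9 and 17.0 CPM. Cd24a, the heat-stable antigen, was above the non-cycling level in all 6 libraries at 1194 against 625 CPM and did not pass. The 5 lower genes were Ms4a1 (6.70-fold), Cd74, the class II invariant chain (6.58-fold), Fcer2a, which encodes CD23 (9.69-fold), Cd22 (3.08-fold) and Cd38 (3.24-fold). Other genes of later B cells did not pass, with log2 ratios of -2.04 for H2-Aa and -1.32 for H2-Ab1, both of class II, -1.87 for Cr2, a complement receptor, and -0.91 for Cd72. Of 9 migration genes, 8 passed the filter and 2 were lower, Cxcr5, the follicle homing receptor (13.4 to 37.3 against 57.4 to 108 CPM), and S1pr1, the receptor for exit into blood (31.9 to 64.6 against 107 to 181 CPM). Cxcr4, the marrow retention receptor, was at 168 against 280 CPM and did not pass. No survival gene of 7 passed in either direction. Of 8 biosynthesis genes, 8 were above the non-cycling level on pooled ratios, against 45.9% of the 8771 genes, and 7 in all 6 libraries. Only Impdh2, of guanine nucleotide synthesis, reached 2-fold in each. Apobec3, which encodes a cytidine deaminase, was at 366 against 428 CPM and did not pass.

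**Figure D3:**
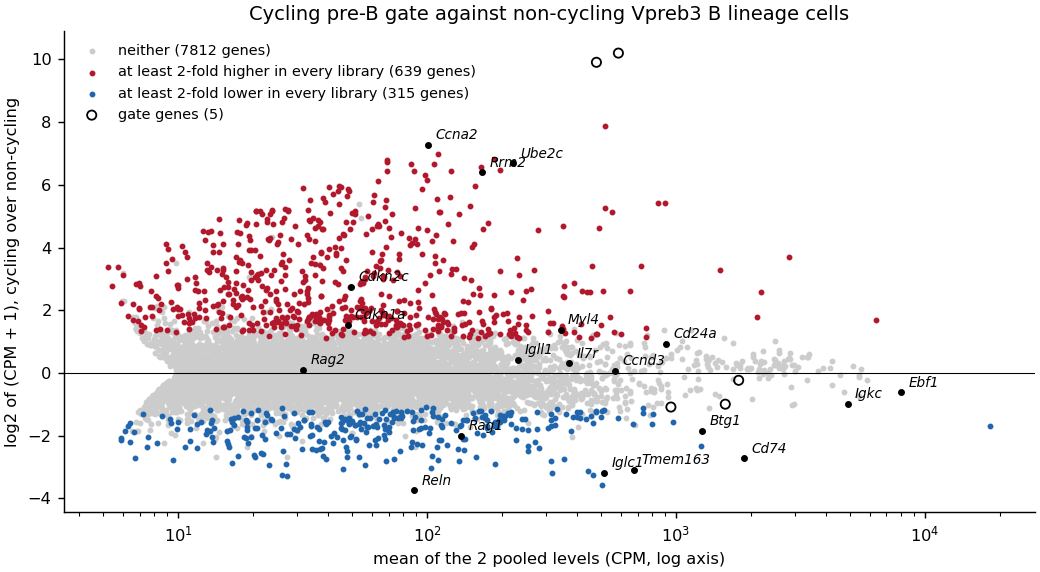
Mean pooled level (CPM, log axis) and log2 ratio of CPM + 1 of 8771 genes, cycling pre-B gate cells over non-cycling Vpreb3 B lineage cells. Red and blue points differed at least 2-fold in each of 6 libraries and open circles are gate genes; Ccna2, Rrm2 and Ube2c lay above 6 and Reln, Iglc1 and Tmem163 below -3.

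The 5 lowest ratios belonged to Reln (-3.73), which encodes an extracellular signaling protein, Agbl1 (-3.56), Fcer2a (-3.28), Iglc2 (-3.26) and Col5a3 (-3.26), a collagen chain. This order depends on the pseudocount. With 5 CPM in place of 1 CPM, Fcer2a was at -2.57 and Col5a3 at -2.54, and Iglc1 was below both at -3.12. Agbl1 stood at 37.2, 77.7 and 127 CPM against 802, 897 and 1414 CPM, and Tmem163, a zinc transporter, at 115, 143 and 180 against 974, 1174 and 1367 CPM. For neither did the sets overlap. Outside the rule for naming genes, and picked after their values were seen, some other abundant genes differed. Ptma, at 9656 against 3005 CPM, Hmgb2, a chromatin protein, at 5279 against 405.5 CPM, and Stmn1, a microtubule regulator, at 1764 against 40.5 CPM, were higher. The nuclear RNA Malat1 was lower at 8721 against 27940 CPM.

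The dividing cells had the higher UMI count per cell, and the part of depth in these calls was not tested on its own. With every cell thinned to 5000 UMIs and shallower cells left out (30 dividing and 1538 non-cycling cells), 556 genes were higher and only 200 lower, of which 158 were among the 315. Rag1, Foxo1, Spib, Dclre1c, Cd22, Cd38, Cxcr5, S1pr1, Spn, Cdkn1a and Impdh2 then missed 2-fold in at least 1 library, while keeping their direction at log2 ratios of -1.72, -1.20, -1.27, -0.93, -1.81, -1.38, -1.93, -1.59, 1.47, 1.52 and 1.57.

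The non-cycling cells were also a different mix of stages, so the gate cells were split by Igll1, a gene of the stand-in light chain, and by Ms4a1. The use of Ms4a1 was added after the data were seen. Igll1 was detected in 383 gate cells (40.9%, 37.8 to 44.1%), with 27.4, 38.6 and 53.3% in the lowest, median and highest library. A further 112 cells (12%) had Ms4a1 without Igll1, and 442 (47.2%) had neither. In non-cycling cells the shares were 11.0, 47.0 and 42.0%. Igll1 was found in 0.18% of T cells, at a median depth of 9787 UMIs. Depth differed between the groups, with medians of 18040, 13387 and 11931 UMIs for Igll1, Ms4a1 and neither. Thinned to 5000 UMIs, Igll1 was detected in 32.5% of 907 gate cells and in 14.0% of 2268 non-cycling cells.

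Vpreb1, Dntt, Erg and Lef1 were higher in the cells with Igll1 than in cells with neither gene in every library, while Sox4 and Il7r were lower in every library. The genes described within the gate were not a fixed list. Vpreb1, a partner of Igll1 in the stand-in light chain, stood at 543, 764 and 911 CPM in the lowest, median and highest library, against 9.17, 16.6 and 28.8 CPM in cells with neither gene and 0, 1.55 and 9.54 CPM in Ms4a1 cells. The cells with Igll1 lay above both other groups in every library. For these levels all 6 libraries were used, although 3 held 17 to 19 cells with Igll1 and 4 held 8 to 14 with Ms4a1, under the limit of 20 cells of the calls. Compared with cells with neither gene, Dntt stood at 244, 337 and 685 CPM against 0, 1.59 and 71.9 CPM, and Erg, a factor of early progenitors, at 99.6, 222 and 387 CPM against 0, 17.1 and 38.8 CPM. Without the Jchain cells and cells with RNA of other lineages, pooled Erg was at 223 against 12.2 CPM, and with them at 224 against 23.1 CPM. Lef1 stood at 467, 852 and 1283 CPM against 186, 246 and 313 CPM. Sox4, a factor of B cell precursors, went the other way in 6 of 6 libraries, at 350 CPM with Igll1 and 512 CPM with neither, and Kit, the stem cell factor receptor, was higher with Igll1 in 4 of 6. With the groups set on counts thinned to 5000 UMIs, the log2 ratio of Igll1 cells over cells with neither went from 5.12 to 3.56 for Vpreb1, from 4.53 to 3.89 for Dntt, from 3.22 to 2.88 for Erg and from 1.72 to 1.63 for Lef1. Growth genes did not share one order. Npm1, which encodes nucleophosmin of the nucleolus, was at 1535 CPM in cells with Igll1, 543 CPM with neither and 803 CPM with Ms4a1, and Cdk6 was at 459, 129 and 188 CPM. Both were higher with Igll1 than with neither in 6 of 6 libraries. Myc, the growth regulator, was instead highest with Ms4a1, at 81.9 CPM against 22.4 CPM with Igll1 and 8.09 CPM with neither, and Tfrc, the transferrin receptor, was at 139 CPM with Igll1 and 161 CPM with neither.

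Cells with neither gene differed from those with Igll1 in Il2ra, Myl4, Bach2, Il7r and Igkc. Il2ra, which encodes CD25, a classic mark of pre-B cells, stood at 46.0, 65.0 and 206 CPM against 2.08, 11.2 and 16.7 CPM in cells with Igll1. These groups did not overlap. Myl4 was detected in 95% of them, against 67.9% with Igll1 and 63.4% with Ms4a1. Its level was higher than with Igll1 in 5 of 6 libraries, library 1 being the exception at 646 against 802 CPM. Bach2, a repressor of plasma cell genes, stood at 4533 to 7292 CPM against 2215 to 3415 CPM with Igll1. Rag1 was at 64.0 CPM with neither and 55.4 CPM with Igll1, and was higher with Igll1 in 3 of 6 libraries. Il7r was highest with neither gene, at 434, 517 and 618 CPM against 270, 362 and 396 CPM with Igll1 and 62.1, 179 and 260 CPM with Ms4a1. Igkc was detected in 94.3% of cells with neither gene and in 58.7% of those with Igll1 (T cells 0.90%). Kappa variable genes were detected in 43.7% and 29.2% of them. Whether the Igkc RNA came from joined light-chain genes was not tested. Igkc was at 6026 CPM with neither and at 995 CPM with Igll1, and without the Jchain cells and cells with RNA of other lineages at 1515 and 450 CPM.

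Cells with Ms4a1 differed from cells with neither gene in Cd74, Iglc1, Ccnd2, Ccnd3, Bcl2 and Cxcr5. Cd74 stood at 2426, 3174 and 4981 CPM against 163, 274 and 446 CPM in cells with neither gene. Iglc1 stood at 524, 653 and 1460 CPM against 0, 33.2 and 86.5 CPM. Pooled, it was at 733 against 36.6 CPM, and at 823 against 10.6 CPM without the Jchain cells and cells with RNA of other lineages. At least 1 lambda constant UMI was counted in 88.4% of Ms4a1 cells and 14.7% of cells with neither. Their D cyclin differed too. Ccnd2 stood at 150, 269 and 353 CPM against 11.0, 28.1 and 45.9 CPM, while Ccnd3 was at 93.2, 282 and 319 CPM against 456, 530 and 653 CPM. Neither cyclin overlapped between these 2 groups, with the few cells of some libraries given above. Bcl2, the survival gene, was at 172 CPM against 14.0 CPM, and Cxcr5 at 103 against 7.41 CPM.

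**Figure D4:**
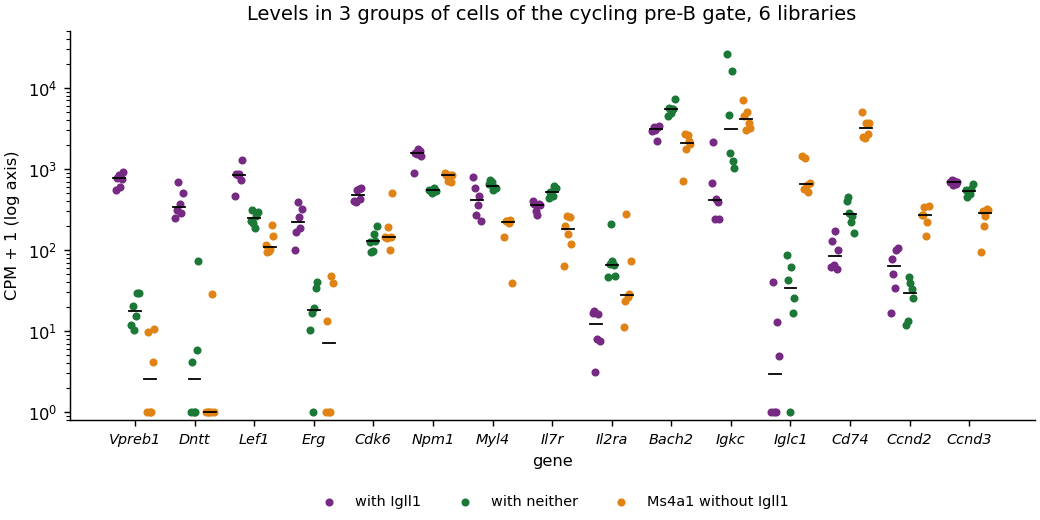
Levels (CPM + 1, log axis) of 15 genes in gate cells with Igll1 (383 cells), with neither Igll1 nor Ms4a1 (442 cells) and with Ms4a1 without Igll1 (112 cells). Each point is a library and black lines are medians; Vpreb1 and Dntt were highest with Igll1, Il7r and Bach2 with neither, and Cd74, Iglc1 and Ccnd2 with Ms4a1.

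The dividing cells were also set against non-cycling cells matched on detection of Igll1 and Ms4a1. This matching does not make the stages equal, was added after the data were seen, and used the 3, 6 and 2 libraries with enough cells for Igll1, neither and Ms4a1, from which the following log2 ratios come. Of the 315 lower genes, 122, 141 and 86 were lower here too, and of the 641 higher genes, 516, 519 and 475 were higher. In all, 653, 170 and 233 genes were lower and 751, 585 and 666 higher in these groups. The rule is easier to pass with fewer libraries, so the counts cannot be compared between groups. The cells are part of those behind the 315 and 641, so the shared genes are not independent support. Rag1 was lower in all 3 groups, with log2 ratios of -2.96, -2.34 and -2.09. Rag2 passed in no group, at -1.39, 0.028 and 0.72, so with Igll1 its ratio was below 0 as well. Btg1, like Rag1, was lower in all 3, with -1.42, -1.68 and -1.06, and Cdkn2c was higher in all 3, with 1.94, 3.44 and 2.06. Cdkn1a, at 0.28, 1.75 and 1.53, passed only in the cells with neither gene. Myl4 was higher with Igll1 (2.53) and did not pass in the other groups (1.00 and 0.65). Dclre1c missed the limit in all 3 groups, at log2 ratios of -0.99, -0.98 and -0.62, against -1.12 before matching. Spib passed with Ms4a1 alone, at -0.57, -1.15 and -1.31, and Cxcr5 with Igll1 alone, at -1.44, -1.05 and -0.57. In cells with Igll1 the stage genes themselves were lower in the dividing set, with log2 ratios of -1.64 for Vpreb1, -1.47 for Dntt and -1.78 for Lef1. The dividing and non-cycling cells with Igll1 had median depths of 18040 and 6612 UMIs, and the part of depth in this was not tested. Iglc1 was lower in the cells with neither (-4.24) and in those with Ms4a1 (-1.18). Ikzf3 did not keep its direction with Igll1 (log2 ratio 0.083), nor did Cd22 (0.88), and Spn was at -0.031. For Cd74 the log2 ratios were -2.07, -1.42 and -1.10, and it passed in no group.

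The second comparison set the gate cells beside 2111 other dividing cells of the same joints, those with at least 1 UMI of Csf1r, the macrophage growth factor receptor, and no Cd79a or Cd79b. Their median depth was 26264 UMIs. Of 9151 genes, 1189 were higher (13.0%) and 1188 were lower (13.0%) in the gate cells by the same rule, and the median log2 ratio of all of them was 0.33, relative to which the following ratios should be read. With median-of-ratios scaling, which moves that midpoint, 649 were higher and 1639 lower. B lineage genes led one side, with Igkc, Ebf1, Cecr2, Pax5 and Vpreb1 at the top, and C1qb, Pid1, Pf4 and Fn1 led the other, among them complement and macrophage genes.

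Both sets were chosen for division by the same limit of 2 UMIs of Mki67 and Top2a. These genes had a median of 4.88 UMIs per 10000 in the Csf1r cells and 20.8 in the gate cells, and the part of the limit and of depth in that was not tested, so the levels of other division genes are given as a description. All 21 mitosis genes were above the Csf1r cells in each of 6 libraries and 10 of them by at least 2-fold, with a median log2 ratio of 1.33. Of 23 S phase genes, 22 were above in each library and 7 reached 2-fold, with a median of 1.16. On pooled ratios, all 21 mitosis and all 23 S phase genes were above the Csf1r cells, as were 62.9% of the 9151 genes. The share of all genes above in every library is not given here. With median-of-ratios scaling 2 mitosis and 4 S phase genes reached 2-fold, with medians of 1.22 and 0.91 against -0.11 for all genes, and 18 of 21 and 20 of 23 were above the Csf1r cells in every library. With each cell thinned to 5000 UMIs, the medians were 1.35 and 1.20. Uhrf1, which keeps DNA methylation through replication, had the largest ratio of the S phase list at 227, 294 and 308 CPM against 27.5, 45.3 and 75 CPM, and Cenpf, of the kinetochore, the largest of the mitosis list at 269, 323 and 448 CPM against 37.7, 61.8 and 90.4 CPM. Of 17 cyclins, kinases and inhibitors, 1 was higher and 2 were lower, with a median log2 ratio of 1.03. Ccnd3 stood at 502 to 649 CPM against 130 to 229 CPM, Ccnd1 at 1.63 against 22.2 CPM, and Cdkn1a at 45.9 to 82.2 CPM against 353 to 570 CPM. Of 7 survival genes 1 was lower. This was Mcl1, at 186 against 769 CPM. In 1633 cycling neutrophil precursors (Fcnb and Camp at least 2 UMIs together, no Cd79a, Cd79b or Csf1r), Ccnd3 was at 271 CPM and Cdkn1a at 104 CPM.

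Within the gate, single cells were spread along the cycle. The S phase genes summed to a median of 37.4 UMIs per 10000, against 2.56 in non-cycling and 10.2 in cycling Csf1r cells, with library medians of 35.5 to 40.0. The mitosis genes summed to 35.2, against 0.86 and 10.2, with library medians of 31.8 to 49.1. The 2 sums were inversely related across the 937 cells, with Pearson's r of -0.43 overall and -0.56 to -0.23 in the libraries. The points share depth through the denominator, and r with log10 UMIs per cell was 0.14 for the S phase sum and 0.016 for the mitosis sum. Against the 95th percentile of non-cycling cells (8.96 and 5.61 UMIs per 10000), 74.6% of gate cells were above both, 9.93% above S phase only, 11.6% above mitosis only and 3.84% above neither.

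The groups lay at different places in this plane. Cells with Igll1 had a median S phase sum of 44.7 and a median mitosis sum of 22.8. In cells with neither gene the order was turned, with 33.9 and 50.5, and the mitosis median was higher than with Igll1 in 5 of 6 libraries, library 3 being the exception (40.7 against 48.1). Cells with Ms4a1 had 25.1 and 15, and 15.2% of them were above neither limit, against 2.61% with Igll1 and 2.04% with neither gene. Those 17 cells had a median depth of 6353 UMIs.

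**Figure D5:**
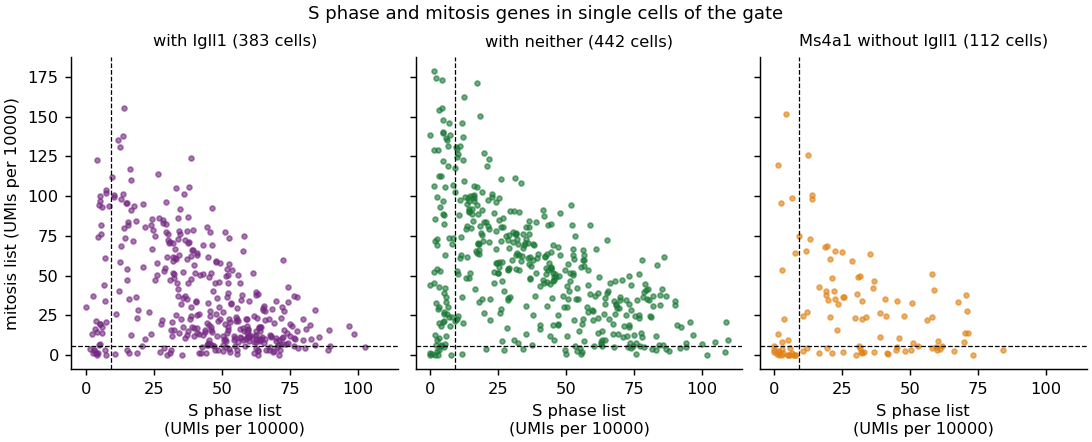
Sum of 23 S phase genes and of 21 mitosis genes (UMIs per 10000) in single gate cells with Igll1, with neither Igll1 nor Ms4a1, and with Ms4a1 without Igll1. Dashed lines are the 95th percentiles of non-cycling cells (8.96 and 5.61); the median cell lay at 44.7 and 22.8 with Igll1 and at 33.9 and 50.5 with neither.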

How the data were processed

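Per the labels and the study's methods, libraries of CD45-positive synovial cells were made with 10x Chromium 3′ chemistry, version 3.1. Reads were aligned to mm10 (Cell Ranger 7.0.0). The authors then corrected for ambient RNA (SoupX 1.6.2), took out doublets (DoubletFinder 2.0.3), and kept cells with 200 to 7000 genes and at most 10% mitochondrial reads (Seurat 4.3.0). They deposited whole UMI counts of 20394 genes in 32953 cells, pooled in 1 table with no scaling. Of its entries, 1724738 are stored zeros, read here as not detected. For S100a8, 94.3% of the gate cells hold such a zero. No per-sample column was left unused (0), and no doublet caller was run here. The libraries share 138 barcodes (276 cells), which include 8 gate cells, and no 2 gate cells share a barcode.

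The gate cells, lists and comparisons were chosen with earlier results of these data known. UMIs were summed per library and set, scaled to CPM, and compared with a pseudocount of 1 CPM, a filter of 10 CPM in either set, and a 2-fold limit in each library with at least 20 cells of both sets. Named genes were the fixed marker and pathway lists, the 15 largest ratios in each direction against non-cycling cells, the 10 against cycling Csf1r cells and the 5 most counted variable genes, from which the text draws examples. Shares carry 95% Wilson intervals. Gene positions are from GENCODE on GRCm38, matched by symbol for 220 of 222 genes. Alternatives were other gates, pseudocount, filter, scaling, thinning and leaving out cells or libraries. Python 3.11.15, numpy 2.4.6, scipy 1.17.1 and matplotlib 3.10.9 were used. Strand of counting is not given in the sources used here.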

Additional observations from a re-analysis of the deposited data

How the results depend on the processing

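The share of the gate among all cells was 2.84%, and it was 3.47% with 1 UMI of Mki67 and Top2a allowed, 3.14% with the gate set on cells thinned to 5000 UMIs, and 2.12% as the median of the libraries. Leaving out each library in turn gave 2.25 to 3.03%, the lowest without library 2. Igll1 was detected in 32.5% of thinned gate cells, and in 37.9 to 41.8% with a library left out. Genes lower than in non-cycling cells numbered 315, and 200 after thinning, 653 among only cells with Igll1 (3 libraries, 122 of them shared with the 315), 170 among only cells with neither Igll1 nor Ms4a1 (6 libraries, 141 shared) and 233 among only cells with Ms4a1 without Igll1 (2 libraries, 86 shared). With a library left out they were 339 to 367, and the higher genes 651 to 695. Under thinning 523 of the 641 higher genes were shared, and 158 of the 315 lower genes. The cause of these shifts was not tested. Against cycling Csf1r cells, median-of-ratios scaling gave 649 higher and 1639 lower genes, and leaving out a library gave 1211 to 1325 and 1198 to 1264. Among only cells with Igll1, the log2 ratios of Ikzf3, Cd22 and Spn were 0.083, 0.88 and -0.031 and so turned direction. Of the named genes, 58 of 61 called higher and 20 of 28 called lower were called again after thinning, and 61 and 25 with median-of-ratios scaling. The counts against non-cycling cells stayed within 1.5 times under a pseudocount of 5 CPM, no filter, median-of-ratios scaling and without cells carrying RNA of other lineages. Of 222 named ratios, 129 moved by more than the spread between libraries among only cells with Igll1. There 3 genes called in the first comparison turned direction. Some that were not called changed sign too, such as Vpreb1, from 0.19 to -1.64. Among only cells with Ms4a1 110 ratios moved, and 65 among only cells with neither. Under the pseudocount of 5 CPM 43 moved, and 2 of 89 calls were lost, Dclre1c (log2 ratio -1.08) and Cd22 (-1.51). With the groups inside the gate set on thinned counts, 6 of 57 ratios moved. Levels below about 10 CPM rest on few UMIs. No paired analysis was possible because the library numbers were not linked to samples and no test between groups was run.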

Other observations

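Genes of the histone clusters (symbols starting with Hist), 67 in the table, were not among the lists above. They summed to a median of 58.1 UMIs per 10000 in the gate cells, against 8.01 in non-cycling cells, 7.51 in cycling Csf1r cells and 22.5 in cycling neutrophil precursors. Within the gate the median was 38.8 in cells with Igll1, 85.6 in cells with neither Igll1 nor Ms4a1 and 18.1 in cells with Ms4a1. This order did not hold in every library. In library 4 cells with Ms4a1 were highest, at 66.1 against 60.5 with neither and 21.7 with Igll1. In library 6 they were at 38.0 against 14.4 with Igll1. Library 1 stood apart, with a median of 175.6 in gate cells, against 42.3 to 61.9 in the other 5 libraries. Its non-cycling cells were also the highest, at 12 against 4.59 to 9.26. The treatment of library 1 is unknown here.

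Kappa and lambda RNA were counted together, at 10 UMIs or more of each, in 80 of 937 gate cells and in 80 of the 537 with at least 10 UMIs of Igkc. Of 95 gate cells with at least 10 UMIs of lambda constant genes, 80 also had at least 10 of Igkc, and 69 of these were cells with Ms4a1. In non-cycling cells the count was 975 of 1506. Whether this RNA came from joined light-chain genes was not tested.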
